A study of Caenorhabditis elegans with 10 samples.

Results

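The inducible heat shock genes examined here are 9 listed Caenorhabditis elegans genes: the HSP70 genes hsp-70, F44E5.4 and F44E5.5, the HSP16 genes hsp-16.1, hsp-16.2, hsp-16.41 and hsp-16.48, and the HSP12 genes hsp-12.3 and hsp-12.6. A gene was taken as a member where a probe set named it, alone or with other listed genes, and no gene outside the list. The probe set with the highest mean signal over all 10 arrays stood for each gene. By this rule 7 of the 9 genes were measured. In the whole series 17118 genes had a probe set naming no other gene, which counts 5 of these 7. The 7 genes lay on 7 probe sets and gave 6 separate readings, because F44E5.4 and F44E5.5 share both of their probe sets and cannot be told apart. The other two genes, hsp-16.1 and hsp-16.48, lay only on probe sets that also name their unlisted copies hsp-16.11 and hsp-16.49. They fell outside the rule and are given beside the members as shared copy pairs.

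RNA came from whole animals, most of them at L4, the last larval stage. All were grown from synchronized L1 larvae on HT115, an Escherichia coli strain used to feed double-stranded RNA to worms. N2, the laboratory wild type, was fed control RNAi bacteria (n = 3 arrays), wdr-23 mutants were fed control RNAi bacteria (n = 4), and wdr-23 mutants were fed skn-1 RNAi bacteria (n = 3). The sample labels write the mutation as wdr-23(tm1718) and the series text as tm1817. All groups, N2 included, were thus fed bacteria carrying a double-stranded RNA plasmid, on agar with carbenicillin at 50 ug/ml and lactose at 0.2%. Each sample pooled 200 to 500 worms, and the labels call the samples biological replicates. The labels name no heat treatment, so the signals are levels without a named heat shock. No N2 animals on skn-1 RNAi were measured, so whether the effect of skn-1 RNAi differs between genotypes could not be tested.

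Heat shock proteins are molecular chaperones. HSP70 proteins bind exposed stretches of unfolded proteins and release them in cycles of ATP hydrolysis, and small heat shock proteins of the HSP16 class bind unfolding proteins without ATP and hold them soluble. In C. elegans the HSP16 genes, hsp-70 and the F44E5.4/F44E5.5 pair are classic targets of the heat shock factor HSF-1, described as low in unstressed animals and raised strongly by heat. Here their probe sets were not dim. By mean log2 value over the 10 arrays, F44E5.4/F44E5.5 ranked at percentile 95.75 of all probe sets. The shared pairs hsp-16.48/hsp-16.49 and hsp-16.1/hsp-16.11 ranked at 92.6 and 88.8. hsp-16.2 ranked at 74.1, hsp-16.41 at 69.6 and hsp-70 at 67.9. WDR-23 is a WD40-repeat protein that holds down SKN-1, the worm relative of Nrf factors, through a cullin ubiquitin ligase. SKN-1 drives detoxification and oxidative stress genes, and the groups ask what loss of wdr-23 does and how much of it depends on skn-1.

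The skn-1 signal averaged 454 ± 68.7 (SD, n = 3) in N2 and 474 ± 70.1 (n = 4) in wdr-23 mutants on control RNAi, and it was 257 ± 28 (n = 3) on skn-1 RNAi. The fall in the mutant was 0.83 on the log2 scale (adjusted p = 0.000708). The wdr-23 probe set read 3259 ± 453 in the mutant on control RNAi against 865 ± 151 in N2 and 902 ± 18.6 on skn-1 RNAi. Where that probe set lies relative to the mutation is not given in the sources used here, so it does not check the genotype. Signals are linear MAS5 intensities. Changes are differences of log2(signal + 19) from limma fitted to all 3 groups, with p-values adjusted by the Benjamini-Hochberg method over 15783 probe sets. A change was called at an adjusted p under 0.05. The comparisons share groups, so their changes in a gene are not independent of each other. Apart from the percentile ranks above, levels were compared between groups within a probe set only.

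hsp-70 encodes a cytosolic HSP70 that is induced by heat. Its signals were 1070.0, 1256 and 1398 in N2. They were 179, 232, 223 and 172 in wdr-23 mutants on control RNAi. They were 244, 303 and 231 in wdr-23 mutants on skn-1 RNAi. Every mutant array, on either RNAi, lay below every N2 array, while the mutant groups overlapped each other. The mean fell from 1241 ± 165 (SD, n = 3) in N2 to 202 ± 30.3 (n = 4) in the mutant, which is 16% of N2. On the log2 scale the fall was -2.52 (SE 0.15, 95% interval -2.83 to -2.21, adjusted p = 1.04e-09), a 5.72-fold decrease. This was the 11th lowest change among the 15783 tested probe sets. With skn-1 RNAi the mean was 259 ± 38.5 (n = 3), or 20.9% of N2. The difference from the mutant on control RNAi was 0.34 (SE 0.15, 95% interval 0.03 to 0.65, adjusted p = 0.108) and was not called. After centring each array on its median it was 0.48 (adjusted p = 0.0193), and after quantile normalization it was 0.45 (adjusted p = 0.0466), so that this call depends on the scaling. Against N2, hsp-70 remained lower, with a change of -2.18 (SE 0.16, adjusted p = 7.68e-08), the 5th lowest change of that comparison.

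F44E5.4 and F44E5.5 are neighbouring, closely related HSP70 genes. Their brighter probe set read 4326, 5147 and 4605 in N2. It read 2451, 1778, 2898 and 2466 in the mutant on control RNAi, and 3525, 4497 and 3111 in the mutant on skn-1 RNAi. The mutant on control RNAi lay below both other groups without overlap, while the mutant on skn-1 RNAi overlapped N2. The mean fell from 4693 ± 417 in N2 to 2398 ± 463 in the mutant, 51.1% of N2, a log2 change of -0.98 (SE 0.15, adjusted p = 0.000159). With skn-1 RNAi it rose by 0.63 (SE 0.15, adjusted p = 0.00733) to 3711 ± 711, 79.1% of N2. That call did not hold without replicate 2 of the skn-1 RNAi group, when the change was 0.48 (adjusted p = 0.052). The remaining difference from N2 was -0.35 (95% interval -0.69 to -0.01, adjusted p = 0.247) and was not called. The second probe set of the pair showed smaller differences. Its means were 3072 ± 541 in N2, 2387 ± 272 in the mutant and 3133 ± 532 with skn-1 RNAi. Its changes were -0.35 (adjusted p = 0.0683) between mutant and N2, 0.38 (adjusted p = 0.0577) between skn-1 RNAi and control RNAi, and 0.03 (adjusted p = 0.953) between skn-1 RNAi and N2. None of these was called and its groups overlapped in every comparison, so the fall of the pair rests on the brighter probe set.

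**Figure D1:**
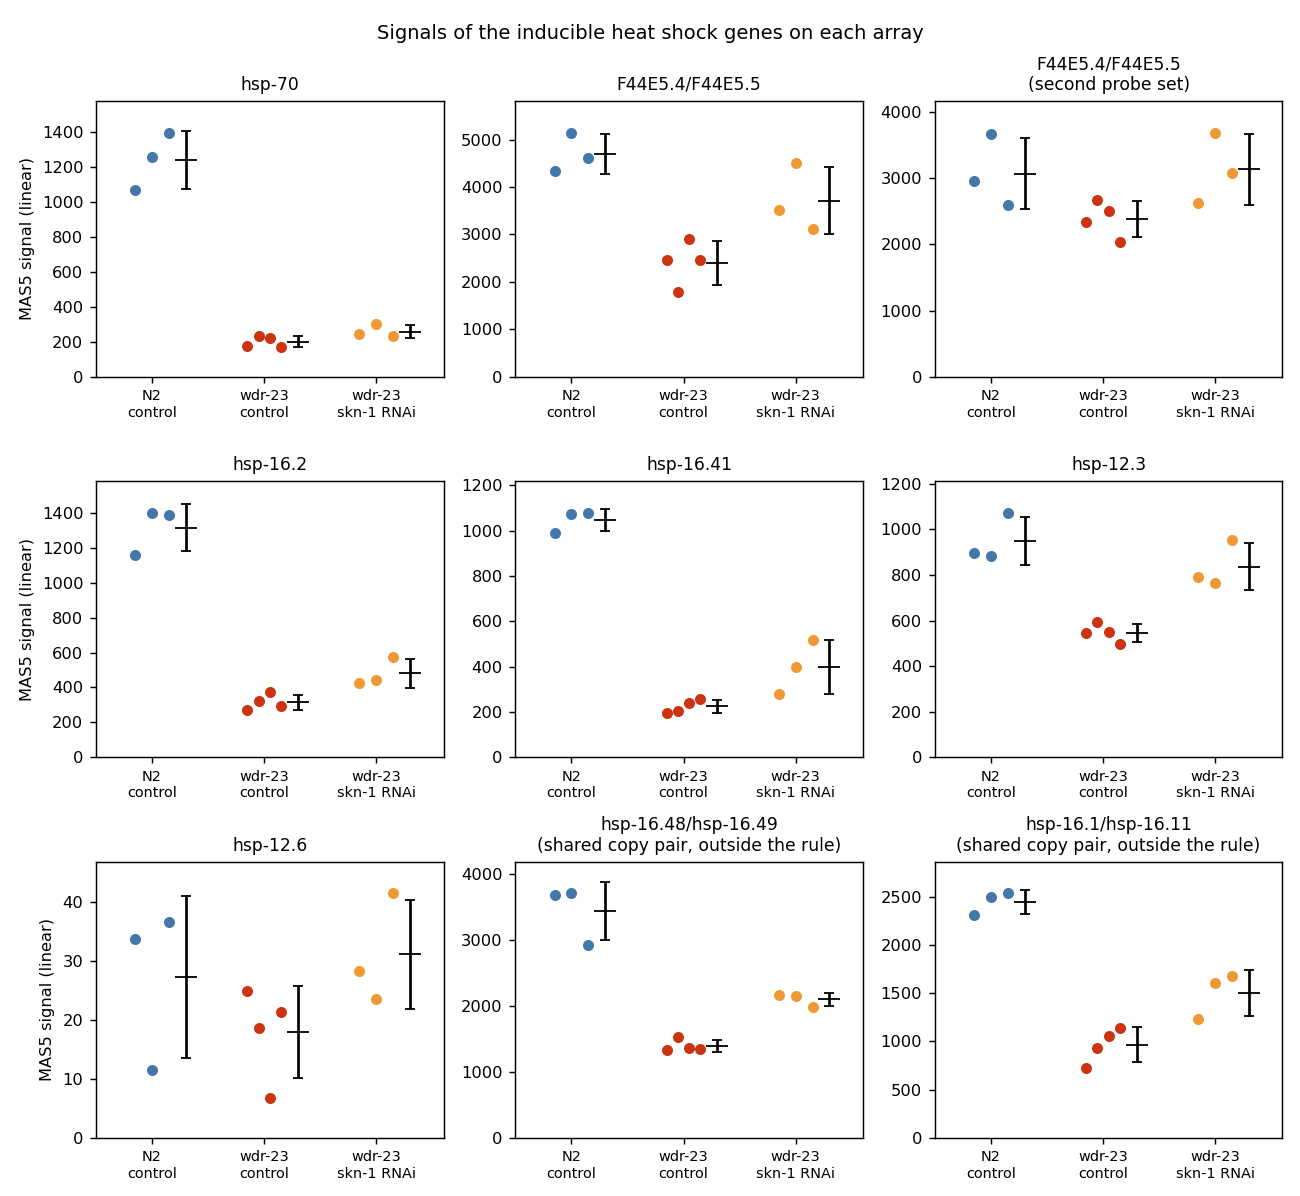
Each panel shows the linear MAS5 signal of a probe set on each of the 10 arrays (points), by group, with the mean and SD beside the points (cross bar and whiskers). The vertical axes start at 0 and differ between panels. For hsp-70, hsp-16.2 and hsp-16.41 the N2 points lie above all mutant points, whereas for F44E5.4/F44E5.5 and hsp-12.3 the mutant on skn-1 RNAi overlaps N2.

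The HSP16 genes encode small heat shock proteins and are arranged in head-to-head pairs. In the RefSeq gene table hsp-16.2 and hsp-16.41 are direct neighbours. In the same table hsp-16.1, hsp-16.48, hsp-16.49 and hsp-16.11 stand in a row. hsp-16.2, whose promoter is widely used in heat shock reporter strains, read 1159, 1400.1 and 1391 in N2. It read 269.9, 323.8, 372.6 and 294.7 in the mutant on control RNAi, and 425.7, 440.6 and 574.5 in the mutant on skn-1 RNAi. The 3 groups did not overlap, with N2 highest and the mutant on control RNAi lowest. The mean fell from 1317 ± 137 to 315 ± 44.1, 23.9% of N2. The log2 change was -2.003 (SE 0.14, 95% interval -2.30 to -1.70, adjusted p = 1.4e-08), a 4.01-fold decrease. With skn-1 RNAi it rose by 0.58 (SE 0.14, adjusted p = 0.00851) to 480.3 ± 81.9, 36.5% of N2. Without replicate 3 of the skn-1 RNAi group, the array with the highest reading of that group, the rise was 0.45 (adjusted p = 0.0597). Against N2 the mutant on skn-1 RNAi remained lower, with a change of -1.43 (SE 0.15, adjusted p = 1.07e-05), a 2.69-fold decrease.

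hsp-16.41, the partner of hsp-16.2, read 988.5, 1074 and 1078 in N2. Its signals were 194, 203, 241 and 259 in the mutant on control RNAi. They were 280.3, 397 and 515 in the mutant on skn-1 RNAi. The 3 groups again stood apart in the same order as for hsp-16.2. The mean fell from 1047 ± 50.3 to 224 ± 30.5, 21.4% of N2. The log2 change was -2.14 (SE 0.17, adjusted p = 4.9e-08), a 4.40-fold decrease. With skn-1 RNAi it rose by 0.75 (SE 0.17, 95% interval 0.39 to 1.1, adjusted p = 0.00472) to 398 ± 118, 38% of N2. The remaining difference from N2 was -1.39 (SE 0.18, adjusted p = 9.58e-05). The skn-1 RNAi arrays were widely spread for this gene, and the lowest of them, 280.3, lay close to the highest mutant control array at 259.

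The shared copy pairs followed the same order of groups, with smaller changes against N2 than hsp-16.2 and hsp-16.41. The probe set naming hsp-16.48 and hsp-16.49 read 3683, 3702 and 2921 in N2. It read 1326, 1522, 1365 and 1352 in the mutant on control RNAi and 2162, 2154 and 1983 on skn-1 RNAi. Its means were 3435 ± 446, 1391 ± 88.8 and 2099.6 ± 101, so the mutant stood at 40.5% of N2 and the mutant on skn-1 RNAi at 61.1%. The log2 changes were -1.29 (adjusted p = 1.63e-07) between mutant and N2, 0.59 (adjusted p = 0.00125) with skn-1 RNAi, and -0.70 (adjusted p = 0.0014) between skn-1 RNAi and N2. The probe set naming hsp-16.1 and hsp-16.11 had means of 2445 ± 121, 964 ± 180.2 and 1505 ± 238. Its changes were -1.34 (adjusted p = 3.54e-06), 0.64 (adjusted p = 0.00547) and -0.70 (adjusted p = 0.0121). For both shared probe sets no array of a group overlapped another group. The difference of hsp-16.1/hsp-16.11 between skn-1 RNAi and N2 did not hold without replicate 1 of the skn-1 RNAi group (-0.57, adjusted p = 0.0669).

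hsp-12.3 and hsp-12.6 are adjacent genes for short small heat shock proteins, and the HSP12 class is generally less responsive to heat than HSP16. hsp-12.3 read 897, 882 and 1072 in N2. It read 546, 595, 549 and 498 in the mutant on control RNAi, and 793, 763 and 955 on skn-1 RNAi. Mutant control arrays lay below all others, and N2 and skn-1 RNAi arrays overlapped. The mean fell from 950.4 ± 106 to 547 ± 39.5, 57.6% of N2, a log2 change of -0.77 (SE 0.12, adjusted p = 0.000211). With skn-1 RNAi it rose by 0.59 (SE 0.12, adjusted p = 0.00274) to 837 ± 103, 88.1% of N2. The difference from N2 was then -0.18 (95% interval -0.46 to 0.10, adjusted p = 0.515). hsp-12.6 was among the dimmest probe sets and was left out of the tests. It read 33.8, 11.495 and 36.7 in N2. The readings were 24.8, 18.7, 6.79 and 21.3 in the mutant on control RNAi, and 28.3, 23.6 and 41.5 on skn-1 RNAi. All groups overlapped, and no difference of hsp-12.6 was detectable at this signal.

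Of the 6 readings, 5 were bright enough to test. All 5 fell in the mutant against N2, where 10.1% of the 15783 tested probe sets were called lower. The median log2 change of the 5 was -2.003, beside 0.01 over all tested probe sets. For all 5 the arrays of the mutant and N2 did not overlap, which held for 33.9% of tested probe sets. With skn-1 RNAi in the mutant, 4 of the 5 rose and hsp-70 was not called. In that comparison 9.99% of probe sets were called higher, and the medians were 0.59 for the 5 and -0.01 over all. The same 4 genes had groups that did not overlap, against 32.4% of tested probe sets. In the mutant on skn-1 RNAi against N2, hsp-70, hsp-16.2 and hsp-16.41 were called lower, where 2.46% of probe sets were. The medians were -1.39 and 0.03, and the groups of those 3 did not overlap, as for 26.2% of tested probe sets. These 5 readings had passed a filter on low values, and the genes were listed with earlier results of these data known, so the counts describe the readings and are no test of the list.

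**Figure D2:**
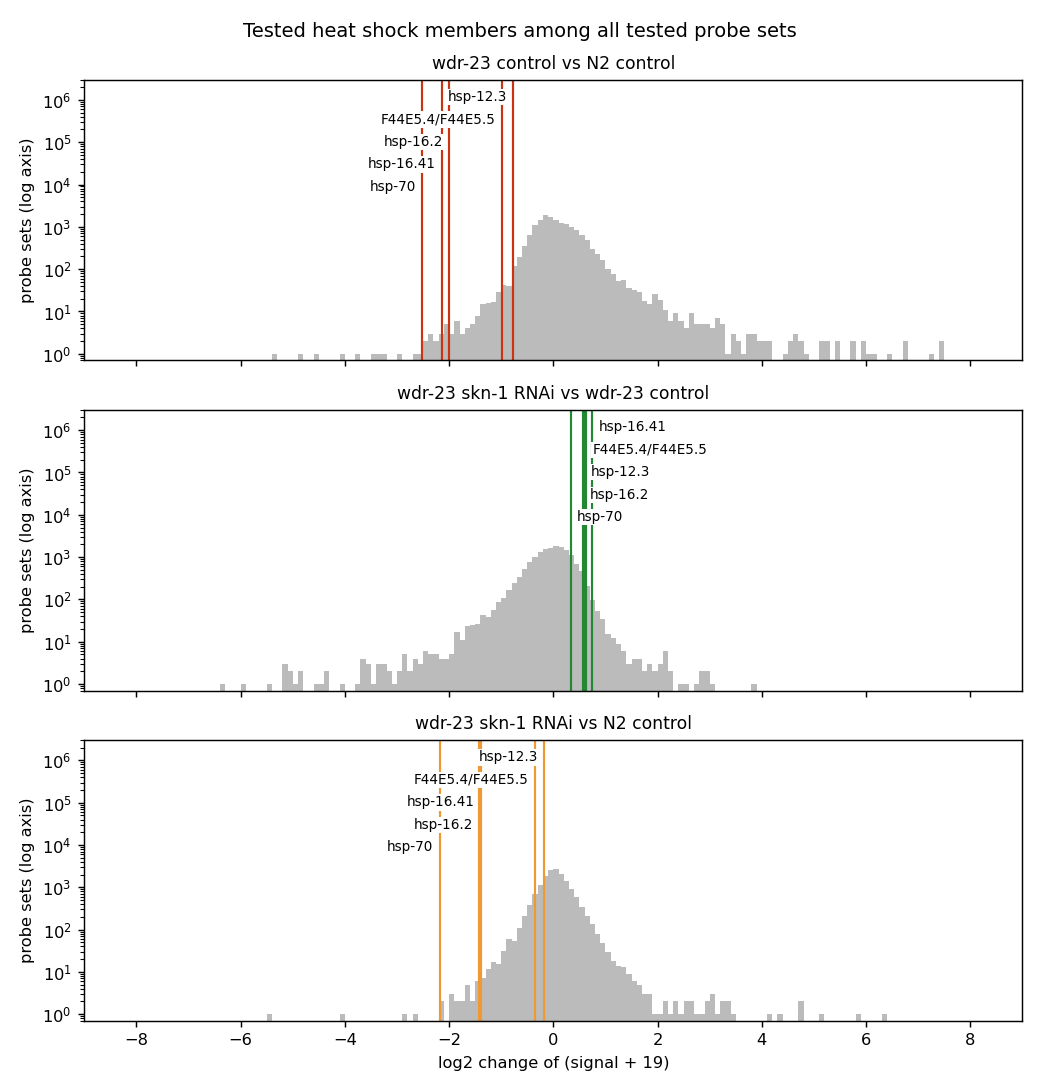
Grey bars show how many of the 15783 tested probe sets (log axis) had each log2 change of (signal + 19) in the 3 comparisons, and coloured lines mark the 5 tested heat shock readings. In the top panel all 5 lines lie to the left of 0, in the middle panel all 5 lie to the right, and in the bottom panel hsp-70, hsp-16.2 and hsp-16.41 stand furthest to the left.

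The members differed among themselves in how near they came to N2 on skn-1 RNAi. Of the 5 tested readings, F44E5.4/F44E5.5 and hsp-12.3, which fell least in the mutant, averaged 79.1% and 88.1% of N2 and were no longer called different from it. hsp-16.2 and hsp-16.41 averaged 36.5% and 38% of N2. hsp-70, which fell most, averaged 20.9%. The log2 rises with skn-1 RNAi of the 4 called genes lay close together, between 0.58 and 0.75, and each of their 95% intervals held the other estimates. Differences between genes in these rises were not tested.

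**Figure D3:**
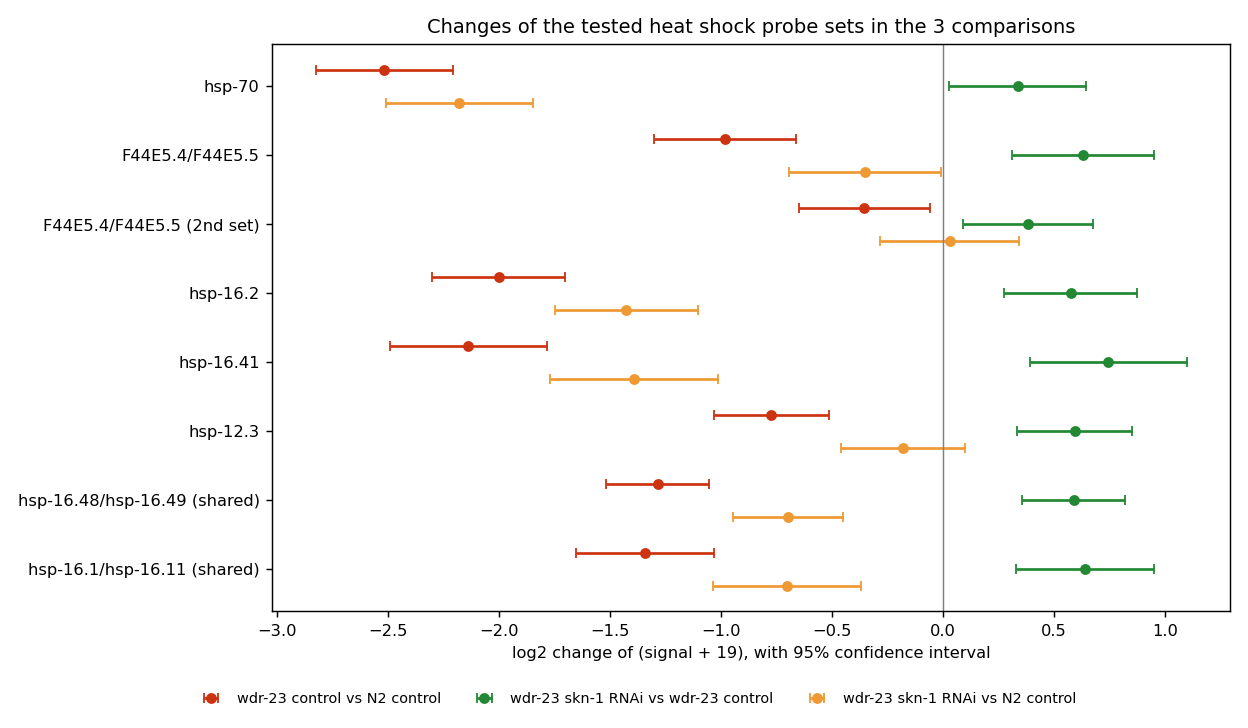
Points give the log2 change of (signal + 19) and whiskers its 95% confidence interval for each tested heat shock probe set in the 3 comparisons, with the second F44E5.4/F44E5.5 probe set and the shared copy pairs included. Changes between mutant and N2 ran from -2.52 for hsp-70 to -0.35 for the second F44E5.4/F44E5.5 set, while those with skn-1 RNAi ran from 0.34 to 0.75.

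After each group mean was subtracted, the deviations on the 10 arrays were correlated between pairs of readings. The correlation of these deviations was 0.84 between hsp-16.41 and hsp-16.1/hsp-16.11 and 0.67 between the neighbours hsp-16.2 and hsp-16.41. It was 0.61 between hsp-16.2 and hsp-16.1/hsp-16.11 and 0.60 between hsp-16.2 and hsp-12.3. In contrast it was -0.15 between the shared pairs hsp-16.48/hsp-16.49 and hsp-16.1/hsp-16.11, -0.04 between hsp-70 and hsp-16.41, and -0.58 between F44E5.4/F44E5.5 and hsp-12.3. The pairs named were picked from all pairs with their values in view, and no correlation was tested. These values describe 10 arrays, with their group means removed, that share their scaling and their labelling. Not all pairs of members varied in the same direction within groups.

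Over the same 10 arrays, the genes whose log2 values were most like each member were found by Pearson r among the tested genes. For hsp-70 they were sqrd-1, B0228.7 and F42A9.6, each at 0.98. For hsp-16.2 they were sqrd-1 at 0.99, clec-52 at 0.98 and hsp-16.41 at 0.98, and for hsp-16.41 they were hsp-16.2 at 0.98, F08D12.2 at 0.97 and clec-52 at 0.97. sqrd-1, a sulfide quinone oxidoreductase that detoxifies hydrogen sulfide, averaged 856 ± 55.7 in N2, 199 ± 31.8 in the mutant and 296 ± 16.7 on skn-1 RNAi. For F44E5.4/F44E5.5 the nearest were hat-1 at 0.98, pmp-5 at 0.96 and scpl-1 at 0.96. For hsp-12.3 they were tbcb-1 at 0.99, ung-1 at 0.98 and F54D5.4 at 0.97. These correlations include the differences between groups, and their part within groups was not computed.

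Genes next to the members did not all share their direction. hsp-70 lies between uggt-2 and cbl-1 in the RefSeq gene table. uggt-2 differed by 0.06 between mutant and N2 (adjusted p = 0.86). cbl-1 averaged 442.9 in N2, 3739 in the mutant and 340.1 on skn-1 RNAi, a rise of 3.03 (adjusted p = 1.69e-12) followed by a difference of -3.39 (adjusted p = 9e-13). Thus a direct neighbour of hsp-70 rose in the mutant where hsp-70 fell, and it fell with skn-1 RNAi, where hsp-70 was not called. T27E4.7, beside hsp-16.1, rose in the mutant (0.45, adjusted p = 0.0207) and fell with skn-1 RNAi (-0.71, adjusted p = 0.00141). T27E4.1, beside hsp-16.11, and F38E11.9, beside hsp-12.3, were not called in any comparison. The genes on the outer sides of the hsp-16.2 and hsp-16.41 pair, srt-41 and srt-42, were too dim to be tested, as was cutl-17 beside hsp-12.6.

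Turning to the regulators of the response, hsf-1, which encodes the heat shock transcription factor itself, averaged 250.3 ± 49.0 in N2, 169 ± 13.3 in the mutant and 256 ± 27.4 on skn-1 RNAi. It fell in the mutant (-0.51, SE 0.15, adjusted p = 0.0178) and rose with skn-1 RNAi (0.55, adjusted p = 0.014). The fall was not called without N2 replicate 1 (-0.39, adjusted p = 0.105) or 3 (-0.465, adjusted p = 0.0607), nor the rise without skn-1 RNAi replicate 1 (0.49, adjusted p = 0.0709) or 2 (0.53, adjusted p = 0.0511). pqm-1, a zinc finger factor known to act beside DAF-16, moved the other way. It rose from 944 ± 52.4 to 1453 ± 189 in the mutant (0.61, adjusted p = 0.00154) and fell to 862 ± 68.1 with skn-1 RNAi (-0.735, adjusted p = 0.00041). sir-2.1, a sirtuin deacetylase, rose with skn-1 RNAi (0.42, adjusted p = 0.028), a call that 6 of 17 alternatives ended (adjusted p 0.0567 to 0.152). Of the 8 tested genes of the HSF-1 list, 1 was called higher and 1 lower in the mutant, and 2 higher and 1 lower with skn-1 RNAi. Among all tested probe sets 17.4% were called higher and 10.1% lower in the mutant. With skn-1 RNAi 9.99% were called higher, and 1981 of the 15783 were called lower. With median centring 3 of the 8 were lower in the mutant and 4 higher with skn-1 RNAi. That scaling called 4613 and 3463 of all tested probe sets, against 1590 and 1577 in the main setting. On skn-1 RNAi against N2, the median change of the 8 was 0.04 and that of hsf-1 was 0.04 (adjusted p = 0.931).

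Of the other small heat shock genes 1 of 8 was called in the mutant, where 10.1% of all tested probe sets were called lower and 17.4% higher. That gene was Y55F3BR.6, lower by -0.57 (adjusted p = 0.00924). sip-1, an embryonic small heat shock protein, hsp-12.1, hsp-12.2, hsp-17 and hsp-25 were not called in any comparison, and the changes of hsp-12.2 were 0.02, -0.05 and -0.04. With skn-1 RNAi hsp-43 fell (-0.36, adjusted p = 0.0247), a call that 6 of 17 alternatives ended, median centring among them (-0.21). The median of the 8 was -0.02 in the mutant against N2, beside 0.01 over all probe sets. With median centring 2 of the 8 were lower in the mutant, where that scaling called 4613 of all tested probe sets lower. A test of these genes against the HSP16 genes was not run.

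Among 9 other HSP70, HSP60 and HSP110 genes, 2 were lower in the mutant, T14G8.3 (-0.56, adjusted p = 0.0212) and T24H7.2 (-0.49, adjusted p = 0.0423). The first call did not hold without N2 replicate 1 (-0.29, adjusted p = 0.142), and 8 of 17 alternatives ended the second (adjusted p 0.0531 to 0.145). With median centring 7 of the 9 were lower. That scaling called 4613 of all tested probe sets lower in the mutant, against 1590 in the main setting. In the main setting 10.1% of all tested probe sets were called lower in the mutant and 9.99% higher with skn-1 RNAi. On skn-1 RNAi against N2, 2.46% were called lower. hsp-1, the constitutive cytosolic HSP70, was at 7931 ± 258 in N2 and 6852 ± 695 in the mutant (-0.22, adjusted p = 0.0969). With skn-1 RNAi 3 rose: T24H7.2 (0.70, adjusted p = 0.00791), hsp-6 (0.61, adjusted p = 0.00238) and hsp-60 (0.40, adjusted p = 0.00928). The products of hsp-6 and hsp-60 are the mitochondrial HSP70 and HSP60. The rise of hsp-60 was not called without skn-1 RNAi replicate 1 (0.35, adjusted p = 0.0575). Against N2 only T14G8.3 was lower on skn-1 RNAi (-0.74, adjusted p = 0.021), and 4 of 17 alternatives ended that call (adjusted p 0.0605 to 0.0788).

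HSP90 and its co-chaperones had 2 calls in the mutant. Over all tested probe sets 10.1% were called lower there and 9.99% were called higher with skn-1 RNAi. Of 8 tested genes, ahsa-1, an activator of HSP90 (-0.36, adjusted p = 0.0128), and fkb-6, an immunophilin (-0.40, adjusted p = 0.0136), were lower in the mutant. The first call was lost without N2 replicate 2 (-0.31, adjusted p = 0.0648) and the second without N2 replicate 1 (-0.37, adjusted p = 0.0636). With median centring 6 of the 8 were lower, where that scaling called 4613 of all tested probe sets lower, against 1590 in the main setting. hsp-90 itself was at 10111 ± 630 in N2 and 8447 ± 750 in the mutant (-0.26, adjusted p = 0.0648). With skn-1 RNAi chn-1, a ubiquitin ligase that works with chaperones, rose (0.54, adjusted p = 0.00496).

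J proteins start the ATP cycle of HSP70, and nucleotide exchange factors end it. Of 30 such genes 8 fell in the mutant and 6 rose with skn-1 RNAi, beside 10.1% and 9.99% of all tested probe sets. The 8 were 5 without N2 replicate 1 or 2, without mutant control replicate 4 or with a replicate block. Of single calls in the mutant, 13 of 17 alternatives ended that of dnj-5, 8 that of dnj-16, 5 that of dnj-26 and 1 that of dnj-17. After median centring these counts were 22 lower and 15 higher, because that scaling shifts all log2 changes by -0.20 and 0.15 in these comparisons. Of all tested probe sets it called 4613 lower in the mutant and 3463 higher with skn-1 RNAi. The main setting called 1590 and 1577. The largest falls of this list in the main setting were in dnj-28 (-0.80, adjusted p = 0.00482), dnj-11 (-0.60) and bag-1 (-0.48). The largest rise of the list with skn-1 RNAi was in dnj-26 (0.59, adjusted p = 0.0043). The cytosolic chaperonin and prefoldin fold actin, tubulin and other proteins. Of their 14 subunits 4 fell in the mutant and 2 rose with skn-1 RNAi, beside the same 10.1% and 9.99%. The 4 were cct-2 (-0.47), pfd-4 (-0.46), pfd-1 (-0.37) and cct-4 (-0.29), and 2 to 8 of 17 alternatives ended each of these calls. The 2 that rose were pfd-4 (0.68, adjusted p = 0.00258) and pfd-6 (0.46), the second of which 3 of 17 alternatives ended. With median centring 13 of the 14 were lower and 7 higher, beside the same 4613 and 3463 of all tested probe sets. The median changes of both lists in the mutant were -0.23 and -0.30, beside that scaling shift of -0.20. Those of hsp-70, hsp-16.41 and hsp-16.2 were -2.52, -2.14 and -2.003, and that of hsp-12.3 was -0.77. F44E5.4/F44E5.5 changed by -0.98 on its brighter probe set and by -0.35, not called, on its second. The part of scaling in any of these changes was not tested.

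**Figure D4:**
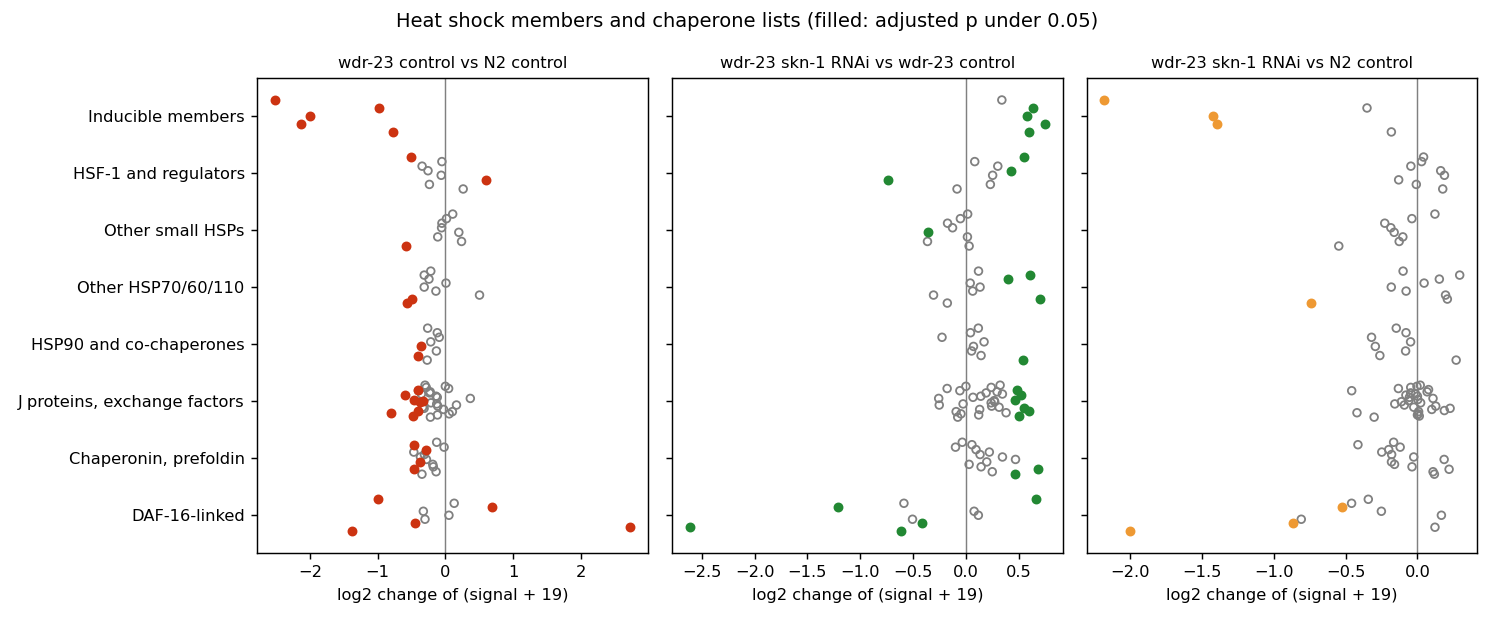
Each point is a gene, placed by its log2 change of (signal + 19) in the 3 comparisons and by list. Filled points had an adjusted p under 0.05. The inducible members hsp-70, hsp-16.41 and hsp-16.2 lie between -2.52 and -2.003 in the left panel. F44E5.4/F44E5.5 lies at -0.98 and hsp-12.3 at -0.77. The other chaperone lists lie between about -1 and 1. DAF-16-linked genes spread to both sides.

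DAF-16, the worm FOXO factor, also raises some small heat shock genes. Of 9 tested DAF-16-linked genes, 2 were higher and 3 lower in the mutant, and 1 was higher and 4 lower with skn-1 RNAi. Over all tested probe sets 17.4% were called higher and 10.1% lower in the mutant. With skn-1 RNAi 9.99% were called higher, and 1981 of the 15783 were called lower. On skn-1 RNAi against N2, 2.46% were called lower. sod-3, a mitochondrial superoxide dismutase often used as a DAF-16 readout, changed in the same direction as the members, by -1.0 (adjusted p = 0.000108) and 0.66 (adjusted p = 0.00483). asah-1, an acid ceramidase, went the other way, by 2.74 and -2.61. fat-5, a fatty acid desaturase, was lower in all 3 comparisons, with changes of -1.38, -0.62 and -2.0. dod-3 rose by 0.69 in the mutant and dropped by 1.21 with skn-1 RNAi. icl-1, an enzyme of the glyoxylate cycle, had changes of -0.45 and -0.41. On skn-1 RNAi fat-5, icl-1 (-0.87) and dod-3 (-0.52) were lower than in N2, and 8 of 17 alternatives ended the call of dod-3 (adjusted p 0.057 to 0.197). The called genes of the list therefore had no single direction in the mutant or with skn-1 RNAi. Whether the list differed from all tested probe sets was not tested.

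In whole animals, fewer cells of a type and less RNA per cell cannot be told apart. Markers of oocytes and early embryos moved with the members: 12 of 16 were lower in the mutant against N2, and 8 of 16 were higher with skn-1 RNAi, beside 10.1% and 9.99% of all tested probe sets. The first count was 6 without N2 replicate 1 and 4 without N2 replicate 2, 9 with a replicate block and 15 with median centring. The second was 3 without skn-1 RNAi replicate 1 and 5 without its replicate 2 or 3. It was 5 and 4 without mutant control replicate 2 and 4, 5 with a replicate block and 14 with median centring. Of all tested probe sets median centring called 4613 lower in the mutant and 3463 higher with skn-1 RNAi. The main setting called 1590 and 1577. The summed signal of the oocyte and embryo markers was 66660 to 76650 in N2, 52650 to 64760 in the mutant and 66530 to 76600 on skn-1 RNAi. Yolk genes moved likewise, with 4 of 5 lower and 4 of 5 higher and summed signals of 48060 to 61130, 40130 to 41510 and 50520 to 64100 in the same order. Sperm markers did not share that direction in the mutant, where 4 of 8 were higher, beside 17.4% of all tested probe sets. With skn-1 RNAi 1 of 8 was lower, close to the share over all tested probe sets, 1981 of 15783. Among markers of somatic tissues, muscle had 1 of 5 called higher in the mutant, near that 17.4%. Neurons had 2 of 6 higher, epidermis 3 of 5, and the intestine 2 higher and 1 lower of 5. Of 17 alternatives, 2 changed the muscle count and 9 changed the lower intestine count. With skn-1 RNAi 3 of 5 epidermis, 3 of 6 neuron and 3 of 5 intestine markers were lower, the opposite direction to the members, and 1 intestine marker was higher. The lower counts stand beside the same 1981 of 15783 tested probe sets. Whether the markers of a tissue differed from that share was not tested. No marker of any of these tissues was at 0 in all arrays. The lowest signal of every array was above 0, so this cannot show that a tissue was present. On skn-1 RNAi the ranges of the oocyte and yolk sums overlapped those of N2. In that group hsp-70 averaged 20.9% of N2, hsp-16.2 36.5%, hsp-16.41 38% and hsp-12.3 88.1%. F44E5.4/F44E5.5 averaged 79.1% on its brighter probe set and 102% on its second. The part of germline and stage differences in the heat shock results was not tested.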

How the data were processed

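The authors deposited linear MAS5 intensity signals from Affymetrix C. elegans arrays, 10 in all, made from 250 ng of total RNA, per the labels; the submitters' processing notes give no MAS5 version. Array medians were 113 to 139.7, and each array had been scaled to a trimmed mean of 500.1. Detection calls were not used here. Precision is limited by the array number. A pseudocount of 19, the rounded 20th percentile, was added before the log2 step. Testing left out 77 control probe sets and the dimmest 30% by mean log2 value (6765), which kept 15783.

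A single limma fit (version 3.58.1, R 4.3.3) held all 3 groups, using lmFit followed by trended eBayes, two-sided, on 16.4 total degrees of freedom. Folds are powers of 2 of the fitted change and understate changes of dim genes. The script was tested on simulated data. Summaries used python 3.11.15, numpy 2.4.6, pandas 2.3.3 and scipy 1.17.1.

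Probe sets were named from the platform annotation, compared by gene number with a RefSeq table: 20766 name 1 gene, 887 several and 895 none, and 0 symbols changed. Each list gene was represented by its brightest probe set naming 1 gene. Named genes were the members, up to 3 called genes per list by size of change and all called genes of lists with 5 or fewer, and the 3 genes most like each member. Uncalled list genes and neighbours were picked with their values in view. The members and lists were chosen with earlier results of these data known. Alternatives were other pseudocounts (5 and 64), no filter, quantile normalization, median centring, no trend, a replicate block, the next brightest probe set and leaving out each array; their use on list genes and shared probe sets was added after seeing the data.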

Additional observations from a re-analysis of the deposited data

Results flagged for a closer look

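Among the 40 sets of 4 arrays examined for a value apart from the rest, which were the heat shock probe sets and called list genes in the wdr-23 mutant on control RNAi, 1 was set apart. The J protein gene dnj-17 read 1076 on replicate 2 and 920.2, 908 and 936.5 on the others. Its gap was 0.8292 of the range, just above Dixon's 95% critical value for 4 samples. Chance sets apart about 1 in 20 such groups, so 1 in 40 is no pattern. The fall of dnj-17 in the mutant was called without that array and was not called without N2 replicate 1 (-0.31, adjusted p = 0.0965). No inducible heat shock gene was set apart.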

How the results depend on the processing

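The 18 member changes were recomputed under 17 alternatives, plus the second F44E5.4/F44E5.5 probe set, giving 309 values. Of the 258 values of tested readings, 251 kept direction and side of the threshold. The untested hsp-12.6 turned sign in 1 of 51 values, to -0.13 between skn-1 RNAi and N2 without N2 replicate 2, a move smaller than its spread between arrays. The second probe set ended the calls of F44E5.4/F44E5.5 between mutant and N2 (-0.35) and with skn-1 RNAi (0.38), and turned the uncalled difference between skn-1 RNAi and N2 to 0.0293. Quantile normalization (0.45) and median centring (0.48) called hsp-70 with skn-1 RNAi. Leaving out 1 array ended the rise of F44E5.4/F44E5.5 (0.48) and of hsp-16.2 (0.45). The cause was not tested. Called members numbered 5 in the mutant, 4 with the second probe set. With skn-1 RNAi 4 were called, 5 under either scaling and 3 with the second probe set. Leaving out arrays gave totals of 2848 to 4125, 2216 to 3533 and 521 to 1043 called probe sets, against 4344, 3558 and 1001. Median centring, which shifts all changes by -0.20, 0.15 and -0.06, called 1671 higher and 4613 lower in the mutant, against 2754 and 1590, and 3463 higher and 1308 lower with skn-1 RNAi, against 1577 and 1981. For genes of the other lists and the shared probe sets, 838 recomputed calls held and 97 were lost. With a replicate block hsp-70 changed by -2.45 and hsp-16.41 by -2.21 in the mutant, and no member call changed. Residual correlations were -0.157 to 0.176 in 9 pairs of arrays of 1 number and -0.175 to 0.174 in 24 pairs of different numbers. These similar ranges show no clear pairing by number, but so few pairs cannot exclude it.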
